A study of Mus musculus with 4 samples.

Results

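Genes whose symbol is Gpr followed by a number encode a mixed set of G protein-coupled receptors and of proteins once taken for such receptors. They were followed here in mouse bone marrow-derived dendritic cells, cultured antigen-presenting cells derived from marrow precursors. A platform annotation gave 63 such genes a probe set with no other gene symbol, leaving aside 1 Gpr symbol that is not described. The brightest probe set over the 4 arrays stood for each gene. A log2 value of 2.91, the 40th percentile of probe set means, was exceeded by 36 of the 63. The mean level over all arrays therefore chose the 36, which stand among 14652 genes tested. For 2 of them, Gpr179 and Gpr82, the sulforaphane mean lay under 2.91, so they could enter only by being lower with sulforaphane.

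All cells came from C57BL/6 mice and were harvested on day 7 of culture. Sulforaphane, a broccoli-derived isothiocyanate and NRF2 activator, was given at 0.3 µM for 2 h, and control cells received its solvent DMSO. All 4 cultures, controls included, then received 100 ng/ml lipopolysaccharide (LPS, a ligand of the innate receptor TLR4) for 1 h, and 2 samples per treatment were measured. The labels do not say whether the 2 samples of a group came from separate mice or cultures, so the spread behind the p-values may be technical and p-values measure that spread only. The sample labels give dendritic cells as the cell type. The 11 dendritic cell markers with a probe set all passed the filter, among them the integrin Itgax (11.26 to 11.33 on the 4 arrays) and the MHC class II gene H2-Ab1 (11.37 to 11.81). So did all 11 macrophage and monocyte markers and all 10 neutrophil and granulocyte markers.

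G protein-coupled receptors cross the membrane with a bundle of helices and pass the binding of a ligand to heterotrimeric G proteins. Gs raises and Gi lowers cyclic AMP, a messenger that in myeloid cells restrains the production of several inflammatory cytokines. Myeloid cells use members of this family to read acidity, fatty acids, lysophospholipids, tryptophan metabolites and peptides in inflamed tissue. Several of the Gpr-named proteins have no agreed ligand, and some sit in the Golgi or the lysosome and have no shown coupling to G proteins. The members are ordered below by ligand class, with pairings from general knowledge, some of which are disputed.

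Promoter sequences show the genes on which the results turn, the members with the smallest p-values that have an entry in the RefSeq promoter table. RefSeq promoter windows of assembly GRCm38.p6 were found for 28 of the 36 genes and not for Gpr171, Gpr137b, Gpr52, Gpr27, Gpr20, Gpr34, Gpr182 and Gpr26. Printed are the 250 bases before the annotated start site, 5′ to 3′ on the strand of the gene, with capitals for matches to any of 4 searched motifs.
Gpr18 (chr14:121915889-121916138, minus strand): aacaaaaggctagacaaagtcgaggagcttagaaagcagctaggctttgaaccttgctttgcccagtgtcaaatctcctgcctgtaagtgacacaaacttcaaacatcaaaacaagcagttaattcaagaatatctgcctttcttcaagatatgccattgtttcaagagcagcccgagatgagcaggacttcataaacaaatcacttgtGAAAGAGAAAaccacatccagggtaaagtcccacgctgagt
Gpr84 (chr15:103310439-103310688, minus strand): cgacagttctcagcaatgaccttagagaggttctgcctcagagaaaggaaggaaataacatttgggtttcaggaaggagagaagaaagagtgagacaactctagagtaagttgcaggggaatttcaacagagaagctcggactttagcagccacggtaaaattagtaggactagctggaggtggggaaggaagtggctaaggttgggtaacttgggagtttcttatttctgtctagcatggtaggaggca
Gpr35 (chr1:92972869-92973118, plus strand): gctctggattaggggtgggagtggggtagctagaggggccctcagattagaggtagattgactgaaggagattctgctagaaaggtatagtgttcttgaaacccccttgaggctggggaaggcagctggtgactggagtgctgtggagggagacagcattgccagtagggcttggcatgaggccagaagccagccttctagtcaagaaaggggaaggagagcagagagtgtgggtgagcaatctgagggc
Gpr132 (chr12:112860917-112861166, minus strand): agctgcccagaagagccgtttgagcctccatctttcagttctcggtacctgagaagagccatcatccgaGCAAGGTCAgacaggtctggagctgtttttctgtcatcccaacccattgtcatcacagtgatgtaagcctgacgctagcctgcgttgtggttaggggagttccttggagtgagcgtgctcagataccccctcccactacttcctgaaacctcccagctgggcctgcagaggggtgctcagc
Gpr141b (chr13:19732952-19733201, minus strand): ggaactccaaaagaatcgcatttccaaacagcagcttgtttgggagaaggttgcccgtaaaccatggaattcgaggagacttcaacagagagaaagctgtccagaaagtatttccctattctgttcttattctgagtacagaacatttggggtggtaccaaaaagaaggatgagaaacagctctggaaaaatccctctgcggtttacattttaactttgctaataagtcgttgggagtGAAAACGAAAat
Gpr155 (chr2:73386481-73386730, minus strand): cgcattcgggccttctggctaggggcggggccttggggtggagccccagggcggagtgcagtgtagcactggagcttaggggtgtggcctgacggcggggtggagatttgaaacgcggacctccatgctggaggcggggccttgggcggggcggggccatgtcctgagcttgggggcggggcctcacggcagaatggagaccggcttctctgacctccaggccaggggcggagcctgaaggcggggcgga
The capitals in Gpr18 and Gpr141b match TTTC, any 2 bases and TTTC, letters of the interferon-stimulated response element, on the other strand. Those in Gpr132 match TGACNNNGC, the core of the antioxidant response element bound by NRF2 with small MAF proteins, on the other strand. No letters of the 4 motifs were found in the bases shown for Gpr84, Gpr35 and Gpr155. Gpr35 holds TGACAAGGC from base 21 after its start site, outside the printed stretch.

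Over both strands of the whole windows (250 bases before to 50 after the start site), 7 of the 28 genes held the antioxidant core, or 25% against 14% of 27025 genes with a window. These were Gpr132, Gpr160, Gpr176, Gpr179, Gpr19, Gpr35 and Gpr75. The interferon-stimulated letters occurred in 4 of 28, or 14.3% against 4.0% of all genes, namely Gpr141b, Gpr15, Gpr18 and Gpr19. The cAMP response element TGACGTCA and the NF-kB letters (GGG, any 2 bases, TTTCC) were found in 0 of 28, against 2.0% and 1.9% of all genes. Of the 4 genes with interferon-stimulated letters, Gpr18 and Gpr15 were lower and Gpr141b and Gpr19 higher with sulforaphane. A match to letters describes the sequence and does not show a binding site.

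**Figure D1:**
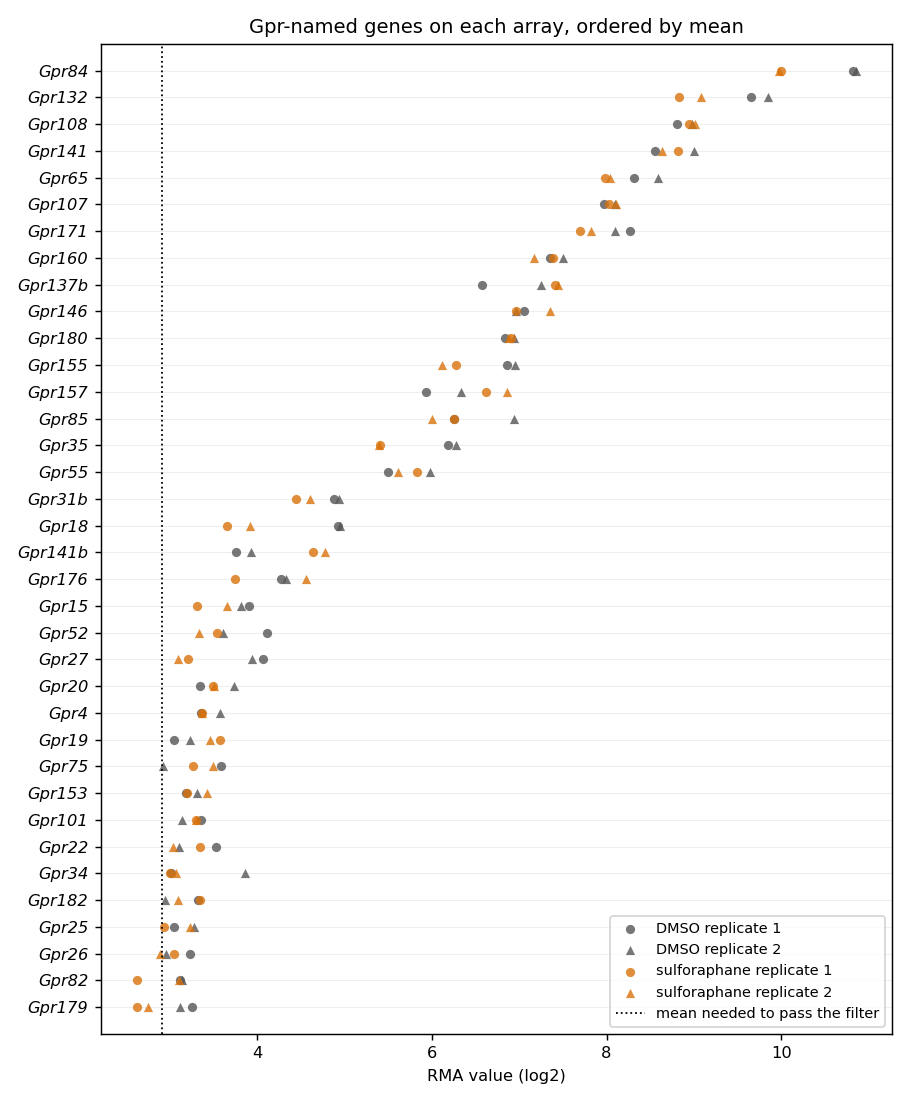
RMA value (log2, x axis) of each of the 36 genes (y axis, ordered by mean) on the 2 DMSO arrays (grey) and the 2 sulforaphane arrays (orange); circles are replicate 1 and triangles replicate 2. The orange marks of Gpr84, Gpr132, Gpr35, Gpr18 and Gpr27 lie to the left of both grey marks, and those of Gpr141b and Gpr157 to the right.

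Between sulforaphane and DMSO arrays, the receptors Gpr18, Gpr84, Gpr35, Gpr27 and Gpr132 and the lysosomal protein Gpr155 were 1.64-fold to 2.22-fold lower, and the orphan receptor Gpr141b was 1.83-fold higher. None of the 36 genes passed an adjusted p of 0.05 by limma, where 0.130% of all genes did (19 of 14652), and the smallest adjusted p, that of Gpr18, was 0.0510. An unadjusted limma p under 0.05 was reached by 14 of the 36, of which 11 were lower and 3 higher, against 5.87% and 7.09% of all genes. Without Gpr179 and Gpr82, which had to be lower to pass the filter, 10 of 34 were lower and 3 higher. The 7 genes named here passed when the variance prior could follow intensity in the same model (7 of 36, against 1.70% of all genes). They also passed when arrays were centred on the median of the genes tested (7 of 36, against 0.976%). This centring was chosen after the data were seen. Members past the threshold numbered 5 of 20 with the filter at the 60th percentile, against 1.30% of all genes. A second quantile normalization gave 5 of 36, against 0.723%, and averaging over probe sets gave 1 member, against 0.232%. No filter, median centring, a replicate block and robust estimation each gave 0, against 0.0546% to 0.130%. Leaving out 1 array, whichever it was, left no gene of the whole table past the threshold in the unmodified model. With 2 arrays a group, the smallest two-sided p of an exact permutation test is 0.333.

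Counted without a test, the groups did not overlap in 17 of the 36 genes, against 43.6% of all genes. Both sulforaphane arrays lay below both DMSO arrays in 13 of the 36 genes and above them in 4, against 19.5% and 24.0% of all genes. With a difference of at least 1.5-fold as well, 6 were lower and 2 higher, against 1.49% and 1.32%. Gpr179 and Gpr82 passed the filter through their DMSO arrays, with sulforaphane means of 2.69 and 2.87 under the filter value, so they had to be lower. Without them 11 of 34 were lower and 4 higher without overlap. With arrays centred on the median of the genes tested, 19 of the 36 were lower and 4 higher without overlap, against 26.4% and 16.2% of all genes. The median difference was -0.13 over the 36 genes and 0.018 over all genes, and 24 of the 36 lay below 0, against 45.8% of all genes. Gpr179 and Gpr82 are included in that median and in the 24. In these bulk samples, fewer cells of a type and less RNA per cell cannot be told apart.

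**Figure D2:**
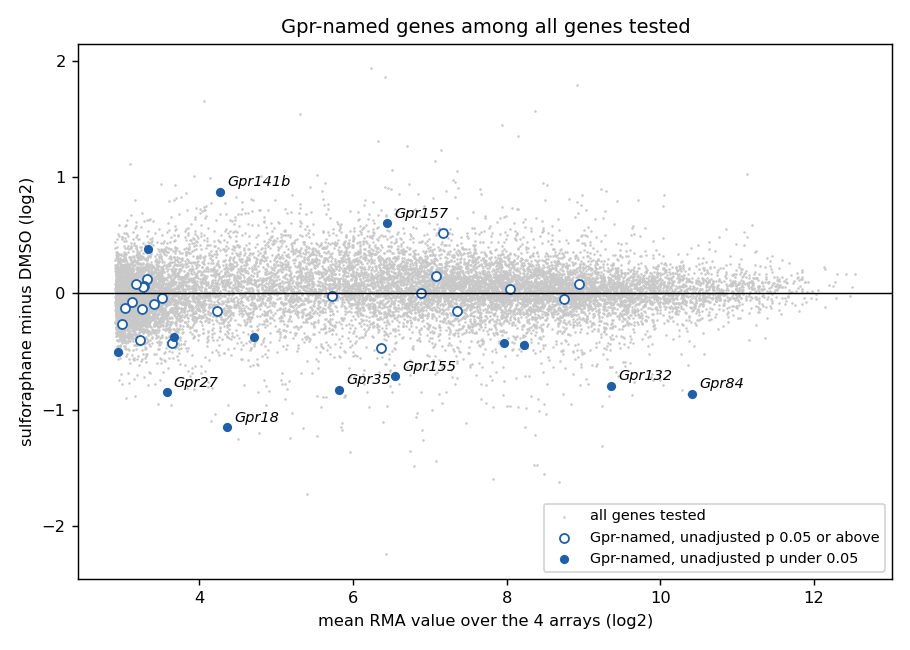
Difference between sulforaphane and DMSO (log2, y axis) against the mean over the 4 arrays (log2, x axis) for all 14652 genes tested (grey) and the 36 Gpr-named genes (blue; filled where the unadjusted limma p was under 0.05). The members furthest from 0 are labelled, from Gpr18 at -1.15 to Gpr141b at 0.87.

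The receptors of the proton-sensing family, which respond to extracellular acidity or are related to those that do, all lay below 0. Gpr132, expressed in macrophages and lymphocytes and related by sequence to the acid sensors, gave 9.66 and 9.85 on the DMSO arrays and 8.83 and 9.09 with sulforaphane. The groups were separated by 0.57, more than the replicates of either group were. Its level went from 9.75 ± 0.13 (SD, n = 2) to 8.96 ± 0.18, a difference of -0.79 ± 0.14 SE (95% interval -1.13 to -0.46, limma adjusted p = 0.102). Gpr65, an acid sensor coupled to Gs, gave 8.31 and 8.59 with DMSO and 7.99 and 8.04 with sulforaphane. The groups did not overlap, but the gap of 0.28 between them was no wider than that between the DMSO arrays, and the difference of -0.44 ± 0.13 had a limma adjusted p of 0.260. Gpr4, an acid sensor best known from endothelium, lay near the filter (3.35 to 3.58 on the 4 arrays) with overlapping groups. Its difference of -0.092 (95% interval -0.39 to 0.21) was 0.020 without DMSO replicate 2.

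The receptors with lipid ligands also all lay below 0 in the unmodified model, and held the member with the widest gap between treatments. Gpr55 was at 0.00016 with median centring, and Gpr55 and Gpr34 rose above 0 when single arrays were left out. Gpr18, for which the lipid N-arachidonyl glycine and a resolvin have been proposed as ligands, gave 4.92 and 4.95 on the DMSO arrays and 3.65 and 3.92 on the sulforaphane arrays. The gap between the groups, 1.0, was wider than the distance between the replicates of either group. The mean went from 4.94 ± 0.023 (SD, n = 2) to 3.79 ± 0.19, a difference of -1.15 ± 0.13 SE (95% interval -1.47 to -0.83, limma adjusted p = 0.0510).

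Gpr84, a Gi-coupled receptor for medium-chain fatty acids that LPS is known to induce in myeloid cells, had the highest probe set values of the set. It gave 10.83 and 10.86 on the DMSO arrays and 9.99 and 9.97 on the sulforaphane arrays. Replicates lay close together in each group, while the groups were 0.83 apart. Group means went from 10.84 ± 0.024 (SD, n = 2) to 9.98 ± 0.017, a difference of -0.86 ± 0.10 SE (95% interval -1.12 to -0.61, limma adjusted p = 0.0565). Since no sample without LPS was analysed here, the values do not say how much of the level LPS had induced.

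Gpr31b, which encodes a receptor proposed for a hydroxylated arachidonic acid, gave 4.88 and 4.93 with DMSO and 4.45 and 4.61 with sulforaphane. The groups did not overlap, and the difference was -0.38 ± 0.11 SE (limma adjusted p = 0.261). Gpr34, a lysophosphatidylserine receptor of microglia and other myeloid cells, gave 3.01 and 3.86 with DMSO and 3.01 and 3.07 with sulforaphane, so that DMSO replicate 2 alone stood apart. Its difference of -0.40 (95% interval -1.05 to 0.25) became -0.82 without DMSO replicate 1 and 0.025 without DMSO replicate 2. Gpr55, a receptor for lysophosphatidylinositol, had overlapping groups between 5.50 and 5.98 and a difference of -0.020 (95% interval -0.47 to 0.43), which without DMSO replicate 1 was -0.26 and without DMSO replicate 2 was 0.22. The median of these 5 genes was -0.40, that of Gpr34, and -0.82 without DMSO replicate 1.

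Among receptors for small metabolites, Gpr35 alone passed the filter. It is a receptor of leukocytes and gut epithelium, for which kynurenic acid and a serotonin metabolite have been proposed as ligands. It gave 6.19 and 6.27 on the DMSO arrays and 5.41 and 5.39 on the sulforaphane arrays. The groups lay 0.78 apart, far more than the replicates of each. Its level went from 6.23 ± 0.059 (SD, n = 2) to 5.40 ± 0.011, a difference of -0.83 ± 0.11 SE (95% interval -1.09 to -0.57, limma adjusted p = 0.0581).

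**Figure D3:**
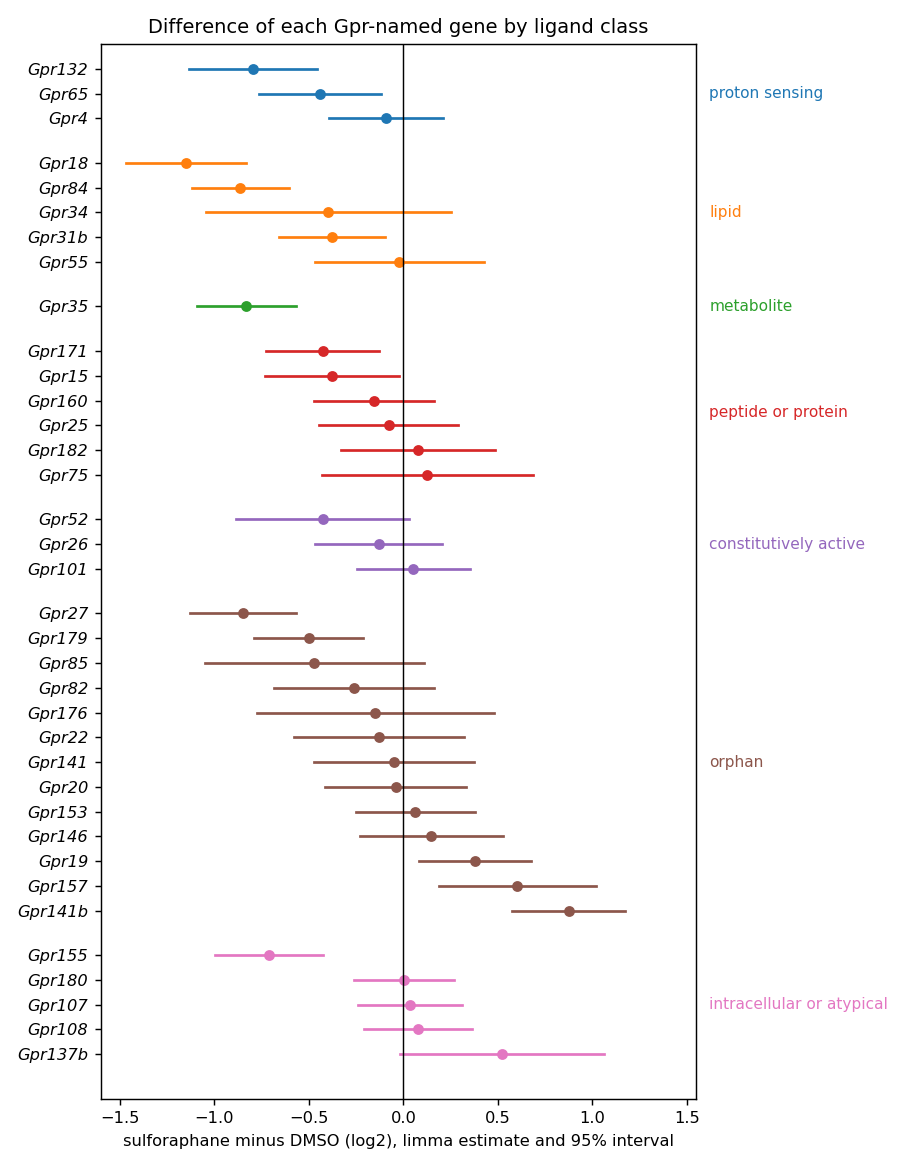
Difference between sulforaphane and DMSO (log2, x axis) of the 36 genes, grouped by ligand class; points are limma estimates from 2 arrays per group and bars 95% intervals. The proton-sensing, lipid and metabolite receptors all lie at or left of 0, while the orphan receptors spread from -0.85 (Gpr27) to 0.87 (Gpr141b).

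The receptors for peptides and proteins differed less, between -0.43 and 0.13. Gpr171, for which a peptide of the proSAAS precursor has been proposed as ligand, gave 8.27 and 8.10 with DMSO and 7.69 and 7.82 with sulforaphane. The groups did not overlap, and the difference was -0.43 ± 0.12 SE (limma adjusted p = 0.241). A dimmer probe set of the same gene, at 2.77 on average and under the filter value, differed by -0.14. Gpr15, a homing receptor of lymphocytes for the colon, gave 3.91 and 3.81 with DMSO and 3.31 and 3.65 with sulforaphane, a difference of -0.38 ± 0.15 (limma adjusted p = 0.360) that became -0.21 without sulforaphane replicate 1. Gpr160, at 7.16 to 7.50, had overlapping groups and a difference of -0.15 (95% interval -0.47 to 0.16), which was -0.042 without sulforaphane replicate 2. Gpr25, Gpr75 and the atypical chemokine receptor Gpr182 had means between 3.12 and 3.32, overlapping groups and differences between -0.078 and 0.13 that changed sign when single arrays were left out.

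In the RefSeq gene order, Gpr171 stands between Med12l, a subunit of the Mediator kinase module, and the purinergic receptor P2ry14, with P2ry13 and P2ry12 further on. P2ry13, a receptor for ADP, gave 6.69 and 6.53 with DMSO and 5.71 and 5.81 with sulforaphane (-0.85 ± 0.12 SE, limma adjusted p = 0.0600). P2ry14, a receptor for UDP-sugars, gave 9.32 and 9.44 against 8.92 and 8.99 (-0.43 ± 0.11, limma adjusted p = 0.205), and P2ry12, an ADP receptor of platelets and microglia, differed by -0.28 ± 0.15 (0.510). Med12l itself differed by -0.12 ± 0.11 SE (0.720). These 5 genes were lower on both sulforaphane arrays than on both DMSO arrays, as were 19.5% of all genes, and none passed the limma threshold.

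The receptors known for high activity without a ligand, Gpr52, Gpr26 and Gpr101, lay near the filter, with means between 3.03 and 3.65. Gpr52, a Gs-coupled receptor of the striatum, gave 4.11 and 3.61 with DMSO and 3.54 and 3.33 with sulforaphane, without overlap. The difference of -0.43 (95% interval -0.88 to 0.032) was -0.67 without DMSO replicate 2 and -0.18 without DMSO replicate 1. Gpr26 (-0.13) and Gpr101 (0.054) had overlapping groups. The median of the 3 genes was -0.13, and 0.0037 without DMSO replicate 1.

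The 13 orphan receptors, those with no agreed ligand, went both ways, with 8 below 0 and 5 above. The 8 include Gpr179 and Gpr82, which had to be lower to pass the filter. Gpr141b, an orphan class A receptor, gave 3.75 and 3.92 on the DMSO arrays and 4.64 and 4.78 on the sulforaphane arrays. The gap of 0.72 between the groups was larger than the differences within them. The mean went from 3.84 ± 0.12 (SD, n = 2) to 4.71 ± 0.096, a difference of 0.87 ± 0.12 SE (95% interval 0.58 to 1.17, limma adjusted p = 0.0611). Gpr141, its neighbour on chromosome 13, gave 8.55 and 9.0 with DMSO and 8.82 and 8.63 with sulforaphane, with overlapping groups and a difference of -0.052 (95% interval -0.47 to 0.37). Near-identical stretches of the 2 genes were not looked for here, so cross-hybridization between their probes was not tested, and neither was the difference between the genes.

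Gpr27, a member of the conserved SREB family of brain-enriched receptors, gave 4.06 and 3.94 with DMSO and 3.21 and 3.09 with sulforaphane. The groups lay 0.73 apart, further than the replicates of either. Group means went from 4.0 ± 0.085 (SD, n = 2) to 3.15 ± 0.080, a difference of -0.85 ± 0.11 SE (95% interval -1.13 to -0.57, limma adjusted p = 0.0581). Both sulforaphane values lay below the median of all probe sets on their arrays, 3.24. Gpr85, of the same family, gave 6.25 and 6.95 with DMSO and 6.26 and 6.00 with sulforaphane, with overlapping groups. Its difference of -0.47 (95% interval -1.05 to 0.11) was -0.82 without DMSO replicate 1 and -0.12 without DMSO replicate 2.

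Gpr157, an orphan receptor found on primary cilia of neural progenitors, gave 5.94 and 6.34 with DMSO and 6.62 and 6.86 with sulforaphane. The groups did not overlap, and the difference was 0.60 ± 0.17 SE (95% interval 0.19 to 1.02, limma adjusted p = 0.236), a 1.52-fold higher level. Gpr19 gave 3.05 and 3.23 with DMSO and 3.58 and 3.46 with sulforaphane, a difference of 0.38 ± 0.12 (limma adjusted p = 0.280). Gpr179, a scaffold of retinal bipolar cells, gave 3.26 and 3.12 with DMSO and 2.62 and 2.75 with sulforaphane, a difference of -0.50 ± 0.12 (limma adjusted p = 0.179), and had to be lower to enter the set. Of the remaining orphan receptors, Gpr82, which adjoins Gpr34 on the X chromosome, gave 3.12 and 3.14 with DMSO and 2.63 and 3.11 with sulforaphane. Gpr146, a regulator of plasma cholesterol, Gpr176, a receptor of circadian clock neurons, and Gpr20, Gpr153 and Gpr22 had overlapping groups and differences between -0.15 and 0.15.

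The 5 Gpr-named proteins of intracellular membranes or without the receptor fold had a median of 0.037, and 4 of them lay above 0. Gpr155, a lysosomal membrane protein that senses cholesterol, gave 6.86 and 6.95 on the DMSO arrays and 6.27 and 6.11 on the sulforaphane arrays. The groups were 0.59 apart, further than the replicates of either. Its level went from 6.90 ± 0.061 (SD, n = 2) to 6.19 ± 0.11, a difference of -0.71 ± 0.12 SE (95% interval -1.0 to -0.43, limma adjusted p = 0.0899). The other probe sets of Gpr155, both under the filter value at 2.76 and 2.58, differed by 0.076 and 0.18, so that the mean of its 3 probe sets differed by -0.15.

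Gpr137b, a lysosomal protein linked to mTORC1 signalling, gave 6.57 and 7.25 with DMSO and 7.41 and 7.44 with sulforaphane. The groups did not overlap, but DMSO replicate 1 set most of the difference of 0.52 (95% interval -0.020 to 1.06, limma adjusted p = 0.404), which was 0.18 without it and 0.86 without DMSO replicate 2. Gpr108 and Gpr107, paralogous proteins of the Golgi, were at 8.81 to 9.01 and 7.97 to 8.10, with overlapping groups and differences of 0.079 (95% interval -0.21 to 0.36) and 0.037 (-0.24 to 0.31). Gpr180 was at 6.84 to 6.94 with a difference of 0.0016 (-0.26 to 0.27). These intervals leave out a change of 1.5-fold in either direction for these 3 proteins, but only against the spread between these arrays, which may be technical. The sign of Gpr107 and Gpr180, and that of the median of the 5 proteins (then -0.026), turned with centring on the median of the genes tested.

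**Figure D4:**
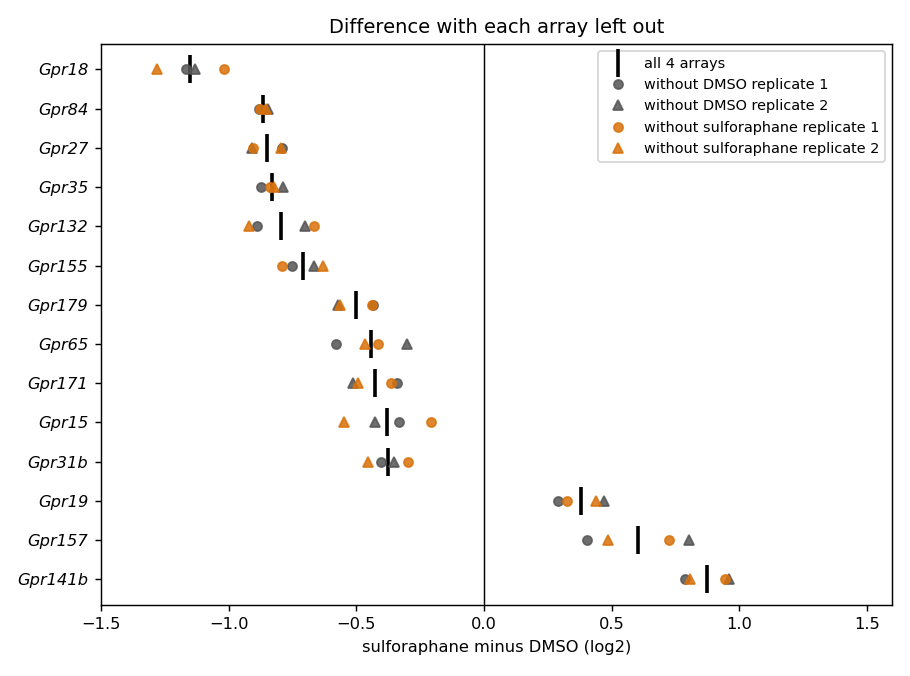
Difference between sulforaphane and DMSO (log2, x axis) of the 14 genes with an unadjusted limma p under 0.05, from all 4 arrays (black bar) and with each array left out in turn (grey, a DMSO array; orange, a sulforaphane array; circles replicate 1, triangles replicate 2). The groups of all 14 did not overlap, so leaving out an array could not turn their sign. Gpr84 moves least among the genes beyond -0.7, from -0.88 to -0.85.

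With single arrays left out, the difference ran from -0.88 to -0.85 for Gpr84, from -0.87 to -0.79 for Gpr35, from -0.91 to -0.79 for Gpr27, from -1.28 to -1.02 for Gpr18, from -0.92 to -0.67 for Gpr132, from -0.79 to -0.63 for Gpr155 and from 0.79 to 0.96 for Gpr141b. Gpr65 ran from -0.58 without DMSO replicate 1 to -0.30 without DMSO replicate 2, and Gpr157 from 0.40 to 0.80. The DMSO arrays were less alike than the sulforaphane arrays, with an SD of the log2 difference over all genes of 0.261 against 0.209. From the sulforaphane arrays, DMSO replicate 1 differed with an SD of 0.317 and 0.311, and DMSO replicate 2 with 0.266 and 0.275. DMSO replicate 2 was thus about as far from the sulforaphane arrays as from DMSO replicate 1. DMSO replicate 1 also had a narrower spread of values (interquartile range 3.41) than the other 3 arrays (3.61 to 3.62).

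Markers of several cell types also lay lower with sulforaphane, and their part in these differences was not tested. Of the 11 macrophage and monocyte markers 10 lay below 0 (median -0.12), and their summed linear values ran from 11810 to 12250 on the DMSO arrays and from 11113 to 11155 with sulforaphane. Of the 11 dendritic cell markers 7 lay below 0 (median -0.21), led by the transcription factors Irf4 (-0.87) and Batf3 (-0.64), while Itgax differed by 0.066 and the summed values overlapped (11338 to 12017 against 11730 to 12136). Of the 7 mast cell and basophil markers that passed the filter 6 lay below 0 (median -0.070). The histidine decarboxylase gene Hdc was at -0.61 and the transcription factor Gata2 at -0.57, while the protease gene Cpa3 differed by 0.015. The summed values of this list ran from 1980 to 2036 with DMSO and from 1800 to 1929 with sulforaphane. Lower without overlap were 4 of these 7, 6 of the 11 dendritic cell and 5 of the 11 macrophage and monocyte markers, against 19.5% of all genes. Higher without overlap were 3 of the dendritic cell markers and 0 of the mast cell or macrophage markers, against 24.0% of all genes. Of 5 plasmacytoid dendritic cell markers 3 lay below 0 (median -0.20), with the transcription factor Spib at -0.62. The 10 neutrophil markers had a median of 0.044, 4 stromal markers one of 0.092 and 2 erythroid and megakaryocyte markers one of 0.075. Markers of T and NK cells, in which Gpr18, Gpr171 and Gpr15 are also known, were near or under the filter value, with 3 of 7 above it and Cd3d and Cd3g under it. Of 6 B cell markers 4 passed the filter, all below 0 (median -0.18). Their means were 7.87 for Ighm, 4.22 for Cd79b, 3.59 for Cd79a and 3.22 for the B cell transcription factor Pax5. The B cell transcription factor Ebf1 (2.74) and Ms4a1 (2.48) lay under the filter value.

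Other genes of receptor signalling were read from 6 lists, in which 102 genes were tested. By limma 1 of them passed, a lower one, against 0.0683% of all genes. This was Nr4a1, a nuclear receptor induced by cyclic AMP and by LPS, which fell 2.78-fold from 9.05 and 9.21 to 7.59 and 7.73 (-1.47 ± 0.12 SE, adjusted p = 0.0322). No gene of the 6 lists passed with any single array left out. In the list of CREB factors and CREB targets 10 of 13 genes lay below 0 with a median of -0.073. After Nr4a1 came Nr4a2 (-0.50), the clock gene Per1 (-0.26) and Fos (0.30).

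Receptors that once had Gpr names, or are close relatives of the Gpr-named ones, had a median of -0.14 over 30 genes, with 13 lower and 5 higher without overlap, against 19.5% and 24.0% of all genes. P2ry13 (above) had the smallest p. Ffar2, the receptor for short-chain fatty acids, gave 6.89 and 6.97 with DMSO and 6.27 and 5.89 with sulforaphane (-0.85 ± 0.15 SE, limma adjusted p = 0.107). Ptger2, a Gs-coupled receptor for prostaglandin E, was the one furthest above 0, at 5.90 and 5.62 with DMSO and 6.53 and 6.51 with sulforaphane (0.76 ± 0.13, limma adjusted p = 0.102). C5ar1, the receptor for the complement fragment C5a, differed by -0.60 ± 0.13 (limma adjusted p = 0.164). None of the 30 passed.

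**Figure D5:**
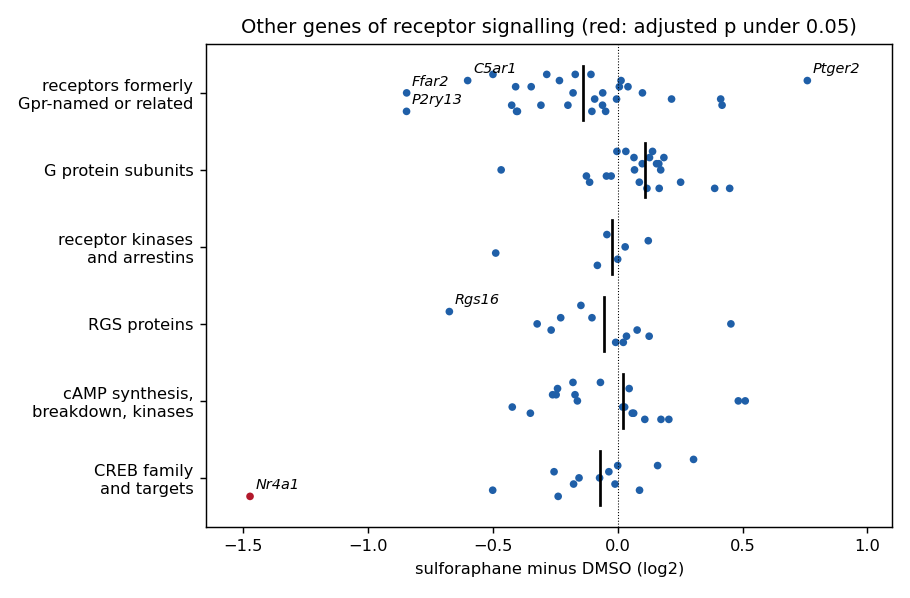
Difference between sulforaphane and DMSO (log2, x axis) of the other genes of receptor signalling, 1 point per gene in each of 6 lists (y axis; the vertical offset within a list has no meaning); the black bars are list medians and red marks an adjusted limma p under 0.05. Nr4a1 at -1.47 is the only red point, and the G protein subunits centre at 0.11.

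No gene of the signalling machinery shared by these receptors passed the limma threshold. Before adjustment, p was under 0.05 for 1 of 22 G protein subunits, 1 of 6 kinases and arrestins, 2 of 12 RGS proteins and 3 of 19 genes of cyclic AMP turnover. By the same criterion 5.87% of all genes were lower and 7.09% higher. Of the 22 subunits of heterotrimeric G proteins 16 lay above 0 (median 0.11), and the one with the smallest p was Gna15, an alpha subunit of blood cells that couples to many receptors (-0.47 ± 0.14 SE, limma adjusted p = 0.251). It was followed by Gnal (0.39), Gngt2 (0.45) and Gng5 (0.18). Of 6 receptor kinases and arrestins Grk3 was lower, at 7.50 and 7.38 with DMSO and 6.95 and 6.96 with sulforaphane (-0.49 ± 0.11 SE, limma adjusted p = 0.170), and the arrestin Arrb1 (-0.082), Grk5 (0.12) and Grk6 (-0.044) had overlapping groups. RGS proteins, which speed up the shutting off of G proteins, had a median of -0.056 over 12 genes. Of these 7 did not overlap between groups, against 43.6% of all genes. Rgs16 was at -0.68, Rgs5 at 0.45, Rgs12 at -0.32 and Rgs14 at -0.23. In the list of cyclic AMP synthesis, breakdown and kinases, 10 of 19 genes lay above 0 (median 0.020, and -0.043 with centring on the genes tested) and 12 did not overlap between groups, against 43.6% of all genes, and those with the smallest p were Prkar2b, a regulatory subunit of protein kinase A (0.51 ± 0.11 SE, limma adjusted p = 0.148), the adenylyl cyclase Adcy7 (-0.42 ± 0.11, limma adjusted p = 0.217), the phosphodiesterase Pde7b (0.48) and the cyclase Adcy6 (-0.35).

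At the edge of the filter, Gpr179 (mean 2.94) and Gpr82 (3.0) lay just inside, and Gpr17 (2.90) and Gpr173 (2.88) just outside. Of the 36 genes 16 had means under a log2 value of 3.87, the 60th percentile of probe set means, where probe sets of silent genes are also found. Probe sets differ in how strongly they bind, so the order of the genes by value is not an order of transcript abundance.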

How the data were processed

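Expression was measured on Affymetrix arrays of 2 sulforaphane and 2 DMSO samples. The submitters' processing notes name RMA and R 2.15.1. The authors deposited log2 values (base inferred from RMA and the range), which RMA makes by background correction, quantile normalization between arrays and probe summarization. The summarization level is not given in the sources used here, and the number of arrays limits the precision.

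Of 41345 probe sets, 23521 had 1 gene symbol in the platform annotation, 1814 had several and 16010 were not listed. The brightest probe set stood for each gene. Genes whose mean exceeded 2.91, the 40th percentile, were fitted with limma 3.58.1 in R 4.3.3 (lmFit, eBayes, no block, 2 residual degrees of freedom), with Benjamini-Hochberg adjustment over all 14652 genes. The fit was tested on simulated data. Deviations from the group mean were not alike in same-numbered arrays (correlation over genes -0.081). That value does not show whether these samples shared a culture. Per-array values were given for genes with an unadjusted p under 0.05, 1.5-fold differences without overlap and the 8 brightest genes, and up to 4 genes by p were named per list. Values per array of further members and of neighbouring genes were added after they were seen. The members, ligand classes, lists and settings were chosen with earlier results of these data known.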

Additional observations from a re-analysis of the deposited data

How the results depend on the processing

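The median difference of the 36 genes stayed below 0 in all 13 alternatives run, from -0.22 to -0.071. The number past the threshold was 5 of 20 with the filter at the 60th percentile (1.30% of all genes), 5 of 36 with a second quantile normalization (0.723%), 1 with the mean of probe sets (0.232%), 7 with an intensity trend (1.70%) and 7 with centring on the median of the genes tested (0.976%). That centring was chosen after seeing the data and shifted all genes by -0.062. The number was 0 with the replicate block, no filter, median centring and robust estimation, and 0 with each array left out. With the replicate block 16 genes had an unadjusted p under 0.05 and the block changed no call of a member, while an array left out gave 9 to 15. The share of all genes with an unadjusted p under 0.05 was counted only in the unmodified model (5.87% lower, 7.09% higher). The counts of members under these other settings therefore have no matching share to be read against. Lower genes without overlap numbered 8 of 20 with the 60th percentile filter (18.8% of all genes) and 17 to 22 of 36 with an array left out (30.8% to 36.3%), and higher ones 5 to 12 (35.6% to 45.3%), a looser criterion with fewer arrays. No gene of the whole table passed with an array left out.

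With the 60th percentile filter the class medians were -0.62 (proton sensing), -0.62 (lipid), -0.29 (peptide) and 0.048 (orphan). The constitutively active class had no gene left under it. With an array left out they ran from -0.82 to -0.35 for lipid, from -0.26 to 0.0037 for constitutively active and from -0.18 to 0.10 for orphan receptors, and for CREB genes from -0.13 to -0.053. Centring on the genes tested gave -0.12 for RGS proteins and -0.14 for CREB genes. Against the same shares of all genes past the threshold, genes of the 6 lists numbered 2 with the 60th percentile filter, 2 with a second quantile normalization, 3 with centring on the genes tested, 6 with an intensity trend and 0 with each array left out.

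Signs turned only in members with overlapping groups. With an array left out this was fixed in advance, because a member whose groups do not overlap cannot then turn. Centring on the genes tested gave Gpr107 -0.026, Gpr180 -0.061 and Gpr101 -0.0089, median centring gave Gpr55 0.00016, and a second quantile normalization gave Gpr180 -0.056. With an array left out, the signs of 17 members turned, within these ranges: Gpr108 -0.0060 to 0.16, Gpr141 -0.27 to 0.17, Gpr107 -0.026 to 0.10, Gpr146 -0.047 to 0.34, Gpr180 -0.046 to 0.049, Gpr55 -0.26 to 0.22, Gpr176 -0.55 to 0.26, Gpr20 -0.23 to 0.15, Gpr4 -0.20 to 0.020, Gpr75 -0.21 to 0.46, Gpr153 -0.052 to 0.18, Gpr101 -0.058 to 0.16, Gpr22 -0.34 to 0.082, Gpr34 -0.82 to 0.025, Gpr182 -0.11 to 0.27, Gpr25 -0.23 to 0.072 and Gpr26 -0.26 to 0.0037. The other 19 members kept their sign in all alternatives run on them. Among these only Gpr160 and Gpr85 had overlapping groups and could have turned with an array left out. The cause of the turns was not tested.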

Other observations

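Probe sets shared with another gene were left out of the counts because their signal cannot be given to one gene. Of 10 such probe sets that include a Gpr name, the one listed for Gpr89, the Golgi pH regulator, and Gja5, a gap junction gene, was the brightest and gave 7.92 and 8.03 with DMSO and 8.08 and 8.13 with sulforaphane, a difference of 0.13 without overlap. The one listed for Gpr137, a lysosomal protein, and Bad, a promoter of apoptosis, gave 6.85 and 7.03 with DMSO and 6.76 and 6.78 with sulforaphane, a difference of -0.17 without overlap. The other 8 had overlapping groups. A second probe set that includes Gpr146 differed by -0.10, against 0.15 for the one that names Gpr146 alone, and the groups overlapped in both.

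The 27 Gpr-named genes under the filter value had differences between -0.39 and 0.33, with a median of -0.084.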
